A study of Mus musculus with 60 samples.

Results

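The double mutant mouse, which carries both the Dmdmdx and the Largemyd mutation (lineage Dmdmdx/Largemyd), was set directly against the Largemyd mouse at 6 months of age. The comparison holds 10 of the 60 arrays of the series, 5 titled as double mutant and 5 titled as Largemyd, chosen by their titles and not by any measured value. Both groups carry the Largemyd mutation, so the labelled difference between them is the Dmdmdx mutation. Each array measured total RNA from the calf muscle of 1 untreated animal labelled male, and every group of the series holds 5 animals. The other arrays, used here for the spread or for levels set beside these, are C57Bl/6 controls and Dmdmdx single mutants at 6 months, and all 4 lineages at 21 days and 3 months. Values are log2 RMA values, a background-corrected and normalised array signal on a scale where 1 unit is a 2-fold difference. One probe set was used for each of 19938 genes.

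Dystrophin, the protein of Dmd, ties the actin skeleton of the muscle fibre to a group of membrane proteins around dystroglycan, and dystroglycan binds laminin outside the cell through sugar chains. The Dmdmdx mutation is a premature stop in Dmd, and Largemyd mice do not build the laminin-binding sugar on dystroglycan. The 2 mutations thus strike the same link from opposite sides of the membrane, and both are present in all cells of the animal. In dystrophic muscle, fibres die and regrow, macrophages and lymphocytes enter, and fat and connective tissue can take the place of fibres.

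The arrays of the 2 groups differed in features other than the Dmdmdx label. Xist, the RNA that coats the inactive X chromosome of female cells, read 5.57, 11.46, 11.28, 11.84 and 5.85 in Largemyd replicates 1 to 5, against 5.17 to 5.51 in the double mutant. The Y-linked gene Eif2s3y read 4.62 to 4.81 in Largemyd replicates 2, 3 and 4, and at least 9.11 in the other 7 arrays. Largemyd replicates 2, 3 and 4 therefore went against their male label. Values given below as without the high-Xist arrays come from a fit that leaves out every array of 6 months with Xist above 8, so that Largemyd replicates 1 and 5 remain. Largemyd replicates 3, 4 and 5 also carry a different style of title (LGPL2A to LGPL2C), and without these 3 arrays 324 genes passed the test used below, 134 of them among the 268 reported. Lymph node markers (18 genes of B cells and lymphoid tissue) averaged 9.80 in Largemyd replicate 2, 7.17 to 8.56 in the other Largemyd arrays, 8.62 in double mutant replicate 4 and 6.98 to 7.09 in the other double mutants. Marrow markers (20 genes) averaged 10.73 in double mutant replicate 4 and 6.81 to 7.91 in the other 9 arrays. Muscle identity was clear in all 10 arrays: the skeletal actin gene Acta1 read 13.66 to 13.88 and muscle creatine kinase, Ckm, 13.27 to 13.64. In the whole series, 11 arrays had Xist above 8, among them 4 of the 5 C57Bl/6 arrays of 6 months, and 12 arrays had raised markers of other tissue.

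Dmd itself was lower in the double mutant. It read 9.18, 8.99, 9.51, 10.20 and 9.55 in Largemyd and 8.87, 8.66, 9.09, 8.44 and 8.89 in the double mutant. Double mutant replicate 3 lay above Largemyd replicate 2, so the groups overlapped. The difference was -0.70 ± 0.18 (log2 ± SE of the fit, here and throughout), a 1.62-fold fall, with adjusted p = 0.029 from limma. It was -0.83 at 3 months (adjusted p = 0.0056) and -0.57 at 21 days (adjusted p = 0.044). Leaving out the high-Xist arrays gave -0.57 (adjusted p = 0.41), and without Largemyd replicate 4 alone the adjusted p was 0.12. Leaving out double mutant replicate 1, 2, 4 or 5 also took the call away, with adjusted p from 0.0501 to 0.096. For orientation, Dmd averaged 9.88 ± 0.21 (SD, n = 5) in C57Bl/6 and 8.96 ± 0.25 in Dmdmdx at this age.

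Of 16 measured genes of the dystrophin-associated complex, 2 fell, none rose and 14 did not pass the test. The called share was 12.5%, beside 1.34% of all genes, and the median difference 0.09, beside -0.03 over all genes. The other fall was Krt19, a keratin reported to bind dystrophin in striated muscle but also abundant in simple epithelia. It read 8.62 and 8.78 in Largemyd replicates 2 and 4 and 7.24 to 7.54 in the other Largemyd arrays, against 7.02 to 7.14 in the double mutant. The difference of -0.85 ± 0.21 (adjusted p = 0.025) thus rested on these arrays, and was -0.29 (adjusted p = 0.63) without the high-Xist arrays. Utrophin (Utrn), the homologue that can stand in for dystrophin, differed by -0.19 ± 0.07 (adjusted p = 0.21). Dystroglycan (Dag1) differed by 0.11 ± 0.10 (adjusted p = 0.63), the sarcoglycans Sgca, Sgcb and Sgcd by 0.24, 0.07 and 0.36, and nitric oxide synthase (Nos1), which docks on the complex, by -0.48 ± 0.21 (adjusted p = 0.26). Among 13 genes of dystroglycan glycosylation none passed, with differences from -0.12 to 0.16.

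Over all genes the difference was small. At an adjusted p under 0.05, 268 of 19938 genes passed, which is 1.34%: 106 were higher in the double mutant (0.532%) and 162 lower (0.813%). A further view without a model found 519 genes (2.6%) whose 5 values in one group all lay beyond the 5 of the other, 249 higher and 270 lower, and 139 of these were also called. The median size of the 268 differences was 0.43, and 16 reached 2-fold. The call count depended on single arrays. It was 71 without Largemyd replicate 2, 109 without double mutant replicate 2, 139 without double mutant replicate 1 and 140 without double mutant replicate 5. Without the high-Xist arrays it was 14, of which 13 were among the 268. All 268 kept their sign in each of the 26 settings in which they were tested, and 82 of them were not tested once dim genes were left out. The 268 were picked by this same difference and the settings reuse the same arrays. Their sign was thus largely fixed in advance and is no separate support. Fitted on the 10 arrays alone, with 8 residual degrees of freedom against 48, 8 genes passed and 7 were among the 268. The SEs and p-values of the main fit take a common spread for each gene over all groups of the series. Spreads differed between groups: the SD of Elovl6 was 0.86 in Largemyd and 0.33 in the double mutant, that of Cldn5 0.05 and 0.21. For a gene that varied more in these groups than elsewhere, the printed SE is too small.

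**Figure D1:**
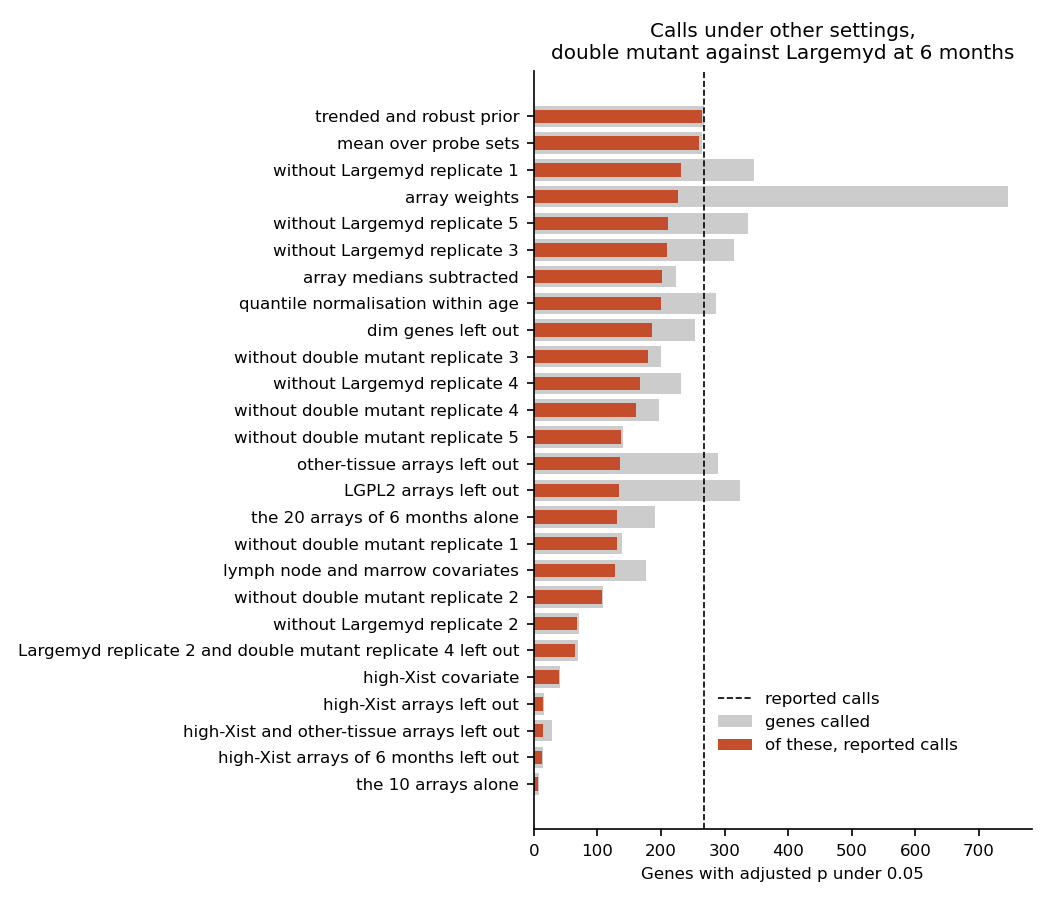
Number of genes with adjusted p under 0.05 in the double mutant against Largemyd at 6 months (grey bars) under 26 other settings, and how many of these belong to the 268 reported calls (orange bars); the dashed line marks 268. The settings without the high-Xist arrays and the fit on 10 arrays kept between 7 and 15 of the 268.

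The genes that kept their call in all 25 settings other than the dim-gene filter were 4: Pttg1, Olfr1372-ps1, Arl14ep and Mettl15. Pttg1 encodes securin, which holds sister chromatids together until anaphase. It read 9.42, 9.05, 9.38, 9.47 and 9.28 in Largemyd and 7.97, 7.56, 7.62, 8.18 and 7.74 in the double mutant. The lowest Largemyd array lay above the highest double mutant, and the fall was -1.51 ± 0.13 (2.84-fold, adjusted p = 3.15e-11). The olfactory receptor pseudogene Olfr1372-ps1 read 6.02, 5.82, 5.83, 6.25 and 5.74 in Largemyd and 7.43, 6.87, 7.55, 7.88 and 7.45 in the double mutant, a rise of 1.50 ± 0.14 (adjusted p = 3.15e-11). Arl14ep, an effector of the small GTPase ARL14, read 8.10, 7.52, 8.10, 7.96 and 7.83 in Largemyd and 8.76, 9.16, 8.74, 8.86 and 8.69 in the double mutant. Its rise was 0.94 ± 0.10 (adjusted p = 9.71e-09). Mettl15, a methyltransferase of the mitochondrial ribosome, read 7.82, 7.38, 7.87, 7.85 and 7.81 in Largemyd and 8.50, 8.47, 9.04, 8.45 and 8.62 in the double mutant, a rise of 0.87 ± 0.11 (adjusted p = 2.07e-06). In none of the 4 genes did the groups overlap. With the high-Xist arrays left out the differences were -1.53, 1.56, 0.88 and 0.80, with adjusted p of 1.06e-06, 1.06e-06, 0.00021 and 0.017.

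**Figure D2:**
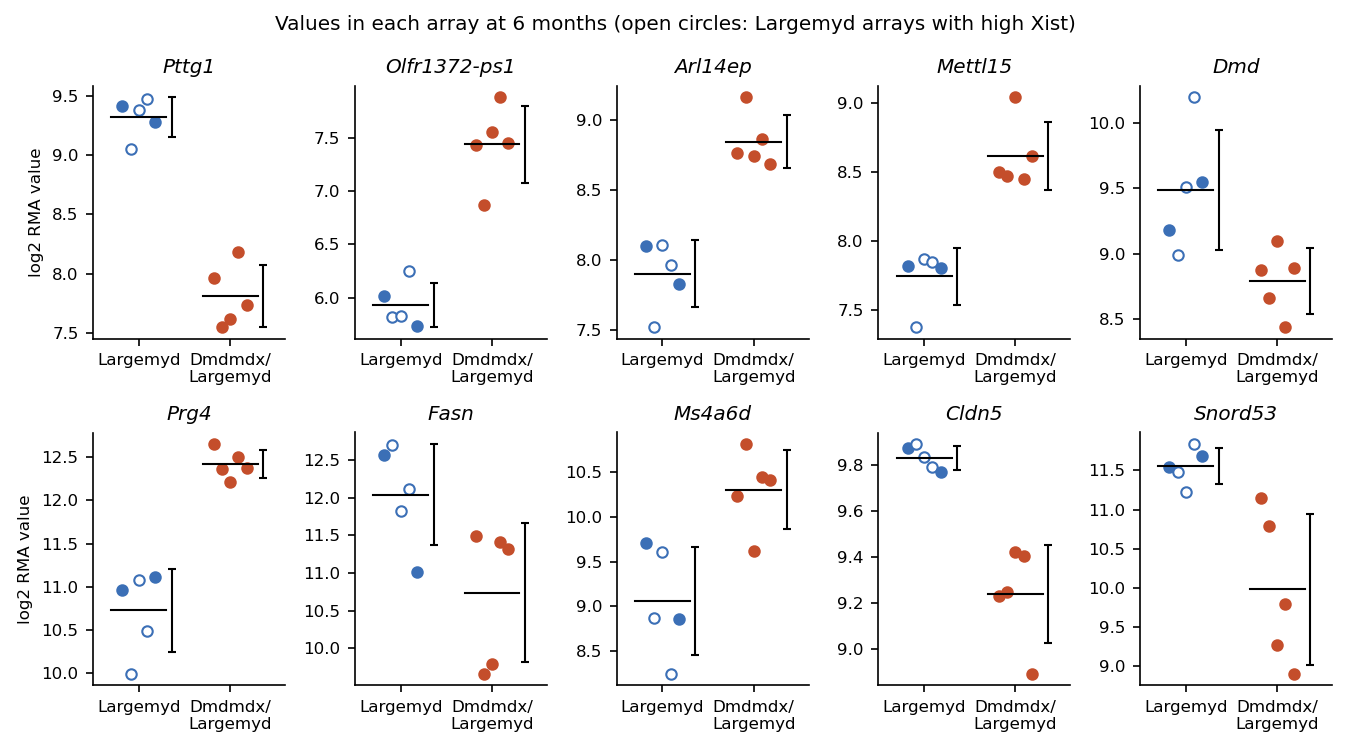
Log2 RMA values of 10 genes in each array at 6 months for Largemyd (blue) and the double mutant (orange), with the mean as a line and the SD as a bar (n = 5 each); open circles are the Largemyd arrays with high Xist. Pttg1, Olfr1372-ps1, Arl14ep, Mettl15, Prg4, Cldn5 and Snord53 do not overlap between the groups, while Dmd, Fasn and Ms4a6d do.

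The 250 bases before the start of 3 genes are shown for the steadiest fall and for the lipid and macrophage genes described below. They come from RefSeq (build GRCm38.p6), 5′ to 3′ on the strand of the gene, and 200 of the 268 genes had such an entry. Capitals mark matches, on either strand, to a motif of the NF-Y factor (CCAAT), of the Sp1 factor (GGGCGG), of the PU.1 factor (GAGGAAG) or of the AP-1 factors (TGANTCA). Pttg1 lies at chr11:43425982-43426231, minus strand, Fasn at chr11:120824548-120824797, minus strand, and Fcgr3 at chr1:171059404-171059653, minus strand.
Pttg1: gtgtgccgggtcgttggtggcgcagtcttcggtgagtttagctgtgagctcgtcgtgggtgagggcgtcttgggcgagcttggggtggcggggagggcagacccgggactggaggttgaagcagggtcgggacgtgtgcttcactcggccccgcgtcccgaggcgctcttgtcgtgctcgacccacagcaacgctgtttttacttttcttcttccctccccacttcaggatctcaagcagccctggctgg
Fasn: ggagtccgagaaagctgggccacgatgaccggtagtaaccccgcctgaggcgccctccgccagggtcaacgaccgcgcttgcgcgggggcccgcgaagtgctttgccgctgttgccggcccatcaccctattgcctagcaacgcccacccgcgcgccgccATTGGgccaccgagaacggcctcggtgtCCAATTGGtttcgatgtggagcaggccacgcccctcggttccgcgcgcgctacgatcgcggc
Fcgr3: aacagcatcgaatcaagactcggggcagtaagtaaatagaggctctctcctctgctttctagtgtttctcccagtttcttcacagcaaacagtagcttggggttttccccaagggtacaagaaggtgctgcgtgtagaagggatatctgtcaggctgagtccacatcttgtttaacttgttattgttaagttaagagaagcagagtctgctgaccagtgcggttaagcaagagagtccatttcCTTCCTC
The Fasn stretch holds 3 matches to CCAAT, 2 of them overlapping, and the Fcgr3 stretch, the first of 2 listed for that gene, holds 1 match to GAGGAAG at its end. The Pttg1 stretch holds none of the 4 motifs. Among 32851 such stretches of all genes, 33.85% hold the NF-Y motif, 32.74% the Sp1 motif, 10.61% the PU.1 motif and 6.75% the AP-1 motif.

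The same comparison at the younger ages used other animals. At 3 months 227 genes were called between double mutant and Largemyd (1.14%) and at 21 days 1104 (5.54%). With the 6 month list, 31 genes were shared in the same direction at 3 months, which is 11.6% of the 6 month calls and 13.7% of the 3 month calls. At 21 days 38 were shared, 14.2% of the 6 month and 3.4% of the 21 day calls. The opposite direction was called for 1 gene at 3 months and 6 at 21 days. At all 3 ages 19 genes (7.1% of the 6 month calls) passed in the same direction. These were 10 rises, in Prg4, Olfr1372-ps1, Lrmda, Arl14ep, Mettl15, Slc22a4, Cyb5r4, Ada, Lyrm7 and Snapc1, and 9 falls, in Pttg1, Ublcp1, Dmd, Me1, Gsta4, Parm1, Ifnz, Fblim1 and AU040320.

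**Figure D3:**
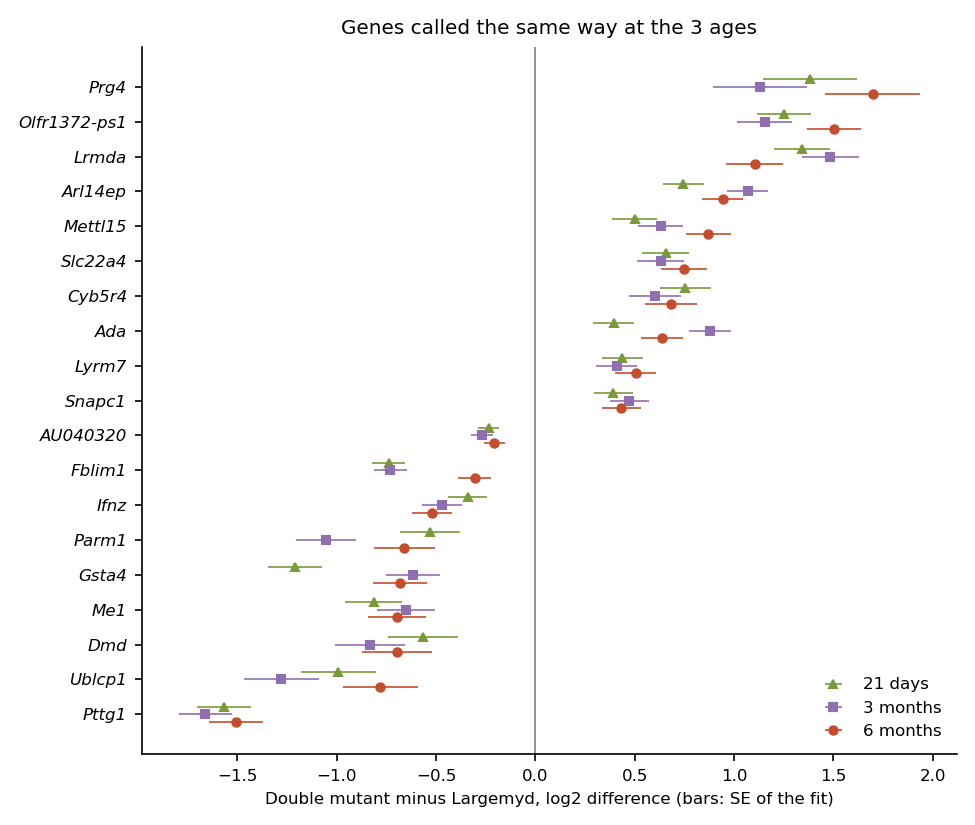
Log2 difference of double mutant minus Largemyd for the 19 genes called the same way at 21 days, 3 months and 6 months (horizontal axis; bars are the SE of the fit, 5 arrays a group). Pttg1 lies between -1.66 and -1.51 at the 3 ages and Olfr1372-ps1 between 1.15 and 1.50.

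Among these 19, Prg4, which encodes lubricin, the lubricant of joints and tendon sheaths, had the largest rise at 6 months. It read 10.96, 9.99, 11.08, 10.49 and 11.11 in Largemyd and 12.65, 12.36, 12.21, 12.50 and 12.38 in the double mutant. The groups were far apart, with a rise of 1.70 ± 0.24 (3.24-fold, adjusted p = 1.05e-05), and of 1.39 (adjusted p = 0.036) without the high-Xist arrays. No other of the 12 tendon markers passed, and their median was -0.17. Lrmda, a gene of melanocyte differentiation, read 6.87, 7.76, 8.11, 6.99 and 6.92 in Largemyd and 8.27 to 8.76 in the double mutant, a rise of 1.10 ± 0.14 (adjusted p = 1.76e-06). Largemyd replicates 2 and 3 stood nearer to the double mutant than the other Largemyd arrays. Ada, adenosine deaminase, rose by 0.64 ± 0.10, the carnitine and ergothioneine carrier Slc22a4 by 0.75 ± 0.12, and Cyb5r4, a cytochrome b5 reductase, by 0.68 ± 0.13. Of the falls, Ublcp1, a phosphatase of the proteasome, changed by -0.78 ± 0.19, the glutathione transferase Gsta4 by -0.68 ± 0.14 and Parm1, a mucin-like membrane protein, by -0.66 ± 0.15, with adjusted p of 0.022, 0.0039 and 0.016. Of these 6 genes Ada kept its call without the high-Xist arrays (adjusted p = 0.022), and Slc22a4 (0.065), Cyb5r4 (0.33), Ublcp1 (0.40), Gsta4 (0.33) and Parm1 (0.14) did not. The call of Ublcp1 was lost without Largemyd replicate 2 or double mutant replicate 2 or 3 (adjusted p up to 0.071), and that of Parm1 without Largemyd replicate 2 or double mutant replicate 2 (up to 0.076).

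Some of the 19 genes lay close together on a chromosome and others far apart. Chromosome 11 held 5 of them, in the order Pttg1, Ublcp1, Olfr1372-ps1, Slc22a4 and Lyrm7, with 8, 90, 21 and 9 tested genes between neighbours. On chromosome 2, Arl14ep and Mettl15 were separated by 2 tested genes, but Mettl15 and Ada by 575. On chromosome 9, Gsta4, Me1 and Cyb5r4 followed each other with 35 and 4 tested genes between. On chromosome 4, Ifnz, AU040320 and Fblim1 had 331 and 239 tested genes between. Chromosome 11 also had the highest share of all 6 month calls, 35 of 1563 tested genes (2.239%, against 1.34% overall). Its densest run of 100 tested genes held 8 calls: Slc22a4, Lyrm7, Hint1, Atox1, Mfap3, Zfp672, Gm16062 and Rasd1. On chromosome 2 the densest run held 7: Pex16, Chst1, Trp53i11, Ehf, Elf5, Arl14ep and Mettl15. Whether this placement is more than the genome's own clustering of genes was not tested.

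Another pair of groups that differ by the Dmdmdx label, Dmdmdx and C57Bl/6 at 6 months, shares no array with the comparison. It has the same imbalance of Xist, which was high in 4 of 5 C57Bl/6 and 1 of 5 Dmdmdx arrays as in 3 of 5 Largemyd and 0 of 5 double mutant arrays, and the part of this in the shared calls was not tested. Of the 268 genes, 78 were called in the same direction there (29.1%) and 9 in the opposite direction, and these 78 are 2.8% of the 2763 genes called between Dmdmdx and C57Bl/6 (13.9% of all tested). Of the 19 genes called at all 3 ages, 14 were called the same way in that pair and none the opposite way. Pttg1 averaged 9.86 ± 0.15 (SD) in C57Bl/6 and 7.81 ± 0.13 in Dmdmdx, Olfr1372-ps1 5.62 ± 0.17 and 7.08 ± 0.19, and Arl14ep 7.84 ± 0.10 and 8.70 ± 0.12. Largemyd differed from C57Bl/6 by 0.32 in Olfr1372-ps1 and 0.06 in Arl14ep, neither of which passed, but Pttg1 was lower in Largemyd than in C57Bl/6 (-0.54 ± 0.13, adjusted p = 0.0012). Lrmda was an exception, at 8.36 ± 0.14 in C57Bl/6 and 8.44 ± 0.15 in Dmdmdx, both near the double mutant.

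Of 32 measured macrophage markers 3 rose in the double mutant, none fell and 29 did not pass (9.4% called, beside 1.34% of all genes). No difference was below 0, beside 11290 of 19938 over all genes (median 0.57, all genes -0.03). Ms4a6d, a membrane protein of monocytes and macrophages, read 9.71, 8.87, 9.60, 8.25 and 8.86 in Largemyd and 10.23, 10.81, 9.61, 10.44 and 10.41 in the double mutant. Replicate 3 of the double mutant lay within the Largemyd range. The rise was 1.25 ± 0.28 (2.37-fold, adjusted p = 0.012). The immunoglobulin receptor Fcgr3 rose by 0.84 ± 0.23 (adjusted p = 0.045) and the inhibitory receptor Fcgr2b by 0.64 ± 0.16 (adjusted p = 0.031). Ms4a4a, another gene of the Ms4a family and outside the list, read 8.43, 8.17, 8.71, 8.15 and 7.61 in Largemyd and 9.08, 9.47, 9.11, 9.60 and 9.97 in the double mutant. It did not overlap and rose by 1.24 ± 0.26 (adjusted p = 0.0081). The mean over the 32 markers was 8.92 to 9.85 in Largemyd and 9.69 to 10.38 in the double mutant, with Largemyd replicate 4 lowest and double mutant replicates 2 and 4 highest. Without the high-Xist arrays the median was 0.42 and no marker passed. Fcgr3 and Fcgr2b lost their calls without any 1 of 7 and 6 of the 10 arrays, Largemyd replicate 4 giving the highest adjusted p (0.14 for each), and Ms4a6d without double mutant replicate 2 (0.057).

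Genes of secreted proteases, chemokines and complement gave single rises. The called shares of these lists were 8.3%, 6.7% and 6.2%, beside 1.34% of all genes. Mmp12, the macrophage elastase, read 9.17, 8.27, 9.18, 7.81 and 9.18 in Largemyd and 9.19, 10.66, 9.47, 10.16 and 10.63 in the double mutant, a rise of 1.30 ± 0.35 (adjusted p = 0.044). The groups touched without overlapping, and the call was lost without Largemyd replicate 2 or 4 or double mutant replicate 2, 4 or 5 (adjusted p up to 0.18). Mmp19, another matrix metalloproteinase, rose by 0.89 ± 0.18 (adjusted p = 0.0035), and these were the 2 of 24 matrix proteases and inhibitors that passed. Of 30 chemokines and cytokines, Ccl6 and Ccl9 rose by 0.90 ± 0.23 and 0.79 ± 0.21 (adjusted p = 0.035 and 0.038), both without a call once Largemyd replicate 2 or 4 was left out (0.13 to 0.16). Of 16 complement genes C5ar1, the receptor for the C5a fragment, rose by 1.03 ± 0.22 (adjusted p = 0.0075). In the fit without high-Xist arrays Mmp12, Mmp19, Ccl6, Ccl9 and C5ar1 differed by 0.85, 0.79, 0.62, 0.57 and 0.84, with adjusted p from 0.33 to 0.50. In whole muscle, more cells of a type and more RNA per cell cannot be told apart.

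In the matrix and its receptors, single genes rose: versican (Vcan), a proteoglycan of loose matrix, by 0.63 ± 0.16 among 37 genes of fibrous matrix, and the fibronectin receptor subunit Itga5 by 0.54 ± 0.13 among 21 laminins, integrins and basement membrane genes (adjusted p = 0.029 and 0.024). Vcan lost its call without Largemyd replicate 2 (adjusted p = 0.20) or double mutant replicate 1 or 2, and Itga5 without Largemyd replicate 2 (0.13) or double mutant replicate 1, 2 or 5. Gfpt2, an enzyme of hexosamine synthesis and the sole call among 19 markers of fibro-adipogenic progenitors, rose by 0.64 ± 0.16 (adjusted p = 0.029), and lost the call without any 1 of 6 arrays (up to 0.10). The calls were 2.7% of the fibrous matrix list, 4.8% of the laminin and integrin list and 5.3% of the progenitor list, beside 1.34% of all genes. None of the 28 genes of TGF-beta and BMP signalling passed. Without the high-Xist arrays no member of the lists in this paragraph passed.

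Of 29 measured genes of fat storage and lipid synthesis 4 fell in the double mutant, none rose and 25 did not pass. The called share was 13.8%, beside 1.34% of all genes. Of the 29 differences 27 were below 0, beside 11290 of 19938 over all genes, and the median was -0.57. Genes of a list were read on the same arrays, so their signs are not independent. Fasn, fatty acid synthase, read 12.56, 12.69, 11.82, 12.12 and 11.01 in Largemyd and 11.49, 9.66, 9.80, 11.42 and 11.32 in the double mutant. Largemyd replicate 5 lay among the double mutants, whose replicates 2 and 3 were lowest. The fall was -1.30 ± 0.31 (2.47-fold, adjusted p = 0.021). The fatty acid elongase Elovl6 read 9.88, 11.27, 9.82, 10.36 and 8.91 in Largemyd and 8.46 to 9.25 in the double mutant, a fall of -1.29 ± 0.29 (adjusted p = 0.015). Dgat2, which makes triglyceride, fell by 0.85 ± 0.19 on the log2 scale (adjusted p = 0.012) and malic enzyme, Me1, by 0.70 ± 0.15 (adjusted p = 0.0063). Pnpla3, a lipid droplet enzyme outside the list, read 9.28, 9.92, 9.28, 9.51 and 9.01 in Largemyd and 8.81, 8.21, 7.85, 8.35 and 9.0 in the double mutant. Its groups barely separated, with a difference of -0.95 ± 0.19 (adjusted p = 0.0032). Of the fat cell markers, chosen here after their values were seen, adiponectin (Adipoq) differed by -0.75 ± 0.41, perilipin 1 (Plin1) by -0.94 ± 0.32 and leptin (Lep) by -0.74 ± 0.35, and none passed.

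The mean of these 29 genes was 10.55, 10.82, 10.54, 10.16 and 9.92 in Largemyd and 9.45 to 10.28 in the double mutant, so Largemyd replicates 1, 2 and 3 were highest. Double mutant replicate 4, with the marrow markers, was highest of its group (10.28) and lay above Largemyd replicates 4 and 5. Fasn, Elovl6, Dgat2 and Me1 lost their calls without Largemyd replicate 2 (adjusted p = 0.12, 0.13, 0.091 and 0.067), and the first 3 also without double mutant replicate 2 (0.11, 0.054 and 0.065). Fasn did so without double mutant replicate 3 as well (0.087). Without the high-Xist arrays the median of the list was -0.36 and no member passed. In C57Bl/6 and Dmdmdx at this age Fasn averaged 11.14 ± 0.41 and 9.40 ± 0.49. With high Xist as a covariate the list's median was -0.43 and again no member passed. Within Largemyd, the high-Xist arrays stood above the other arrays by 0.42 ± 0.45 for Fasn and 1.09 ± 0.40 for Elovl6 (adjusted p = 0.87 and 0.70), and by 0.25 ± 0.27 for Dgat2 and 0.03 ± 0.21 for Me1.

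Of 20 endothelial markers 5 fell in the double mutant, none rose and 15 did not pass (median -0.34), and 6 had groups without overlap. Over all genes 0.813% were called lower and 2.6% had groups without overlap in either direction. Cldn5, the claudin of endothelial tight junctions, read 9.87, 9.89, 9.84, 9.79 and 9.77 in Largemyd and 9.23, 9.25, 9.42, 9.40 and 8.89 in the double mutant. The Largemyd values lay close together above all double mutants, and the fall was -0.59 ± 0.16 (adjusted p = 0.045). Egfl7, a vessel-secreted protein, changed by -0.53 ± 0.13, von Willebrand factor (Vwf) by -0.43 ± 0.11, the receptor Tie1 by -0.41 ± 0.10 and the transcription factor Erg by -0.35 ± 0.08, with adjusted p from 0.019 to 0.025. The common vessel markers Pecam1, Cdh5 and Kdr, chosen after their values were seen, differed by -0.39, -0.34 and -0.37 and did not pass. In the list of 15 smooth muscle and pericyte markers 13.3% were called. Calponin 1 (Cnn1) fell by 0.72 ± 0.16 on the log2 scale and Mcam by 0.42 ± 0.10 (adjusted p = 0.015 and 0.020). Without the high-Xist arrays no gene of this list passed. Outside these lists Ldb2, a cofactor of LIM proteins, read 9.54 to 10.03 in Largemyd and 9.17 to 9.43 in the double mutant (-0.43 ± 0.10, adjusted p = 0.012). In the fit without high-Xist arrays Cldn5, Egfl7, Vwf, Tie1 and Erg differed by -0.58, -0.35, -0.27, -0.31 and -0.26, none with a call. The call of Cldn5 was lost without 9 of the 10 arrays taken singly (adjusted p up to 0.15), that of Egfl7, Vwf and Tie1 without 4, Largemyd replicate 4 giving the highest (0.098 to 0.11), Cnn1 without Largemyd replicate 2 or 4 or double mutant replicate 2 (up to 0.077), and Mcam without Largemyd replicate 2 or double mutant replicate 5 (up to 0.10).

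**Figure D4:**
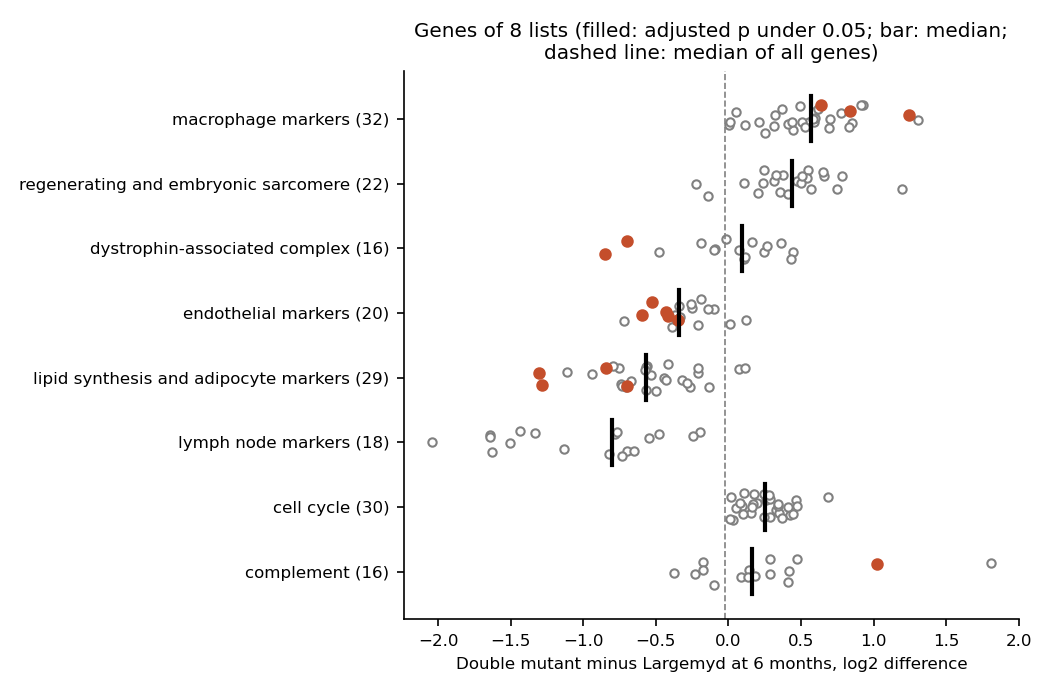
Log2 difference of double mutant minus Largemyd at 6 months for each measured gene of 8 lists (numbers of genes in parentheses; filled points passed at an adjusted p under 0.05; black bars are list medians, the dashed line the median of all genes, -0.03). Medians run from 0.57 for macrophage markers to -0.57 for lipid genes and -0.80 for lymph node markers, none of which passed.

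Muscle fibre genes gave no calls in the list of 22 genes of regenerating and embryonic sarcomere, although 20 of 22 differences were above 0 and the median was 0.44. Embryonic myosin, Myh3, read 8.57, 8.13, 8.39, 8.83 and 8.33 in Largemyd and 9.45, 10.63, 9.45, 8.93 and 9.78 in the double mutant. Its groups did not overlap, yet the difference of 1.20 ± 0.36 had an adjusted p of 0.081. The stretch-responsive protein Ankrd1 differed by 0.78 ± 0.25 (adjusted p = 0.10), also without overlap. Double mutant replicate 4 was lowest of its group for both genes. The list's median was 0.44 without the high-Xist arrays. At 3 months it was 0.04 and at 21 days -0.06. None of 24 satellite cell and myogenic genes, 53 genes of oxidative phosphorylation, 18 fast and 15 slow fibre genes or 23 genes of the neuromuscular junction passed. Differences above 0 numbered 18 of 24, 51 of 53, 18 of 18, 8 of 15 and 20 of 23 in the same order. Their medians were 0.13, 0.11, 0.15, 0.04 and 0.12. Among genes of calcium handling and excitation 22 of 22 were above 0, and over all genes 8648 of 19938. A lean upward was thus not particular to the regenerating list. Orai1, Klhl40 and Sdhaf4 passed singly. Orai1, the calcium channel of the store-operated entry, rose by 0.44 ± 0.08 (adjusted p = 0.0013). It read 8.53 to 8.69 in the double mutant against 7.85 to 8.42 in Largemyd. Orai1 was the sole call among 22 genes of calcium handling and excitation. None of these passed without the high-Xist arrays, where the list's median was 0.02 against 0.20. Klhl40, which stabilises thin filament proteins, rose by 0.79 ± 0.18 (adjusted p = 0.015), but not without Largemyd replicate 2 (0.091) or double mutant replicate 1 (0.062). Sdhaf4, an assembly factor of succinate dehydrogenase, rose by 0.81 ± 0.17 (adjusted p = 0.0066), but not without Largemyd replicate 2 (0.057). Both were low in Largemyd rather than high in the double mutant when set beside C57Bl/6, where they averaged 9.62 ± 0.17 and 8.19 ± 0.17 against 9.72 and 8.10 in the double mutant.

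Errfi1, Pcbd1, Btnl9 and Snord53 lay outside the lists. Errfi1, a feedback inhibitor of the EGF receptor, read 10.27, 10.34, 10.57, 10.28 and 10.52 in Largemyd and 11.24, 10.83, 11.11, 11.69 and 11.34 in the double mutant, a rise of 0.85 ± 0.19 (adjusted p = 0.012). It averaged 10.21 ± 0.09 in C57Bl/6 and 10.39 ± 0.17 in Dmdmdx, and the highest of these arrays, 10.63, lay below the lowest double mutant. Pcbd1, a cofactor recycling enzyme, rose by 0.92 ± 0.23 (adjusted p = 0.031; not called without Largemyd replicate 2 or 4 or double mutant replicate 1, 2, 3 or 5, up to 0.14). Btnl9, a butyrophilin-like gene, read 8.55 to 8.81 in Largemyd and 7.87 to 8.34 in the double mutant and fell by 0.61 ± 0.10 on the log2 scale (adjusted p = 0.00013). Snord53, a small nucleolar RNA, read 11.55, 11.47, 11.22, 11.84 and 11.69 in Largemyd and 11.15, 10.80, 9.27, 9.79 and 8.90 in the double mutant, with a fall of -1.57 ± 0.28 (adjusted p = 0.0010). Double mutant replicates 1 and 2 lay close to Largemyd and the other 3 well below. At the younger ages it stood the other way, with differences of 1.96 at 3 months (adjusted p = 7.81e-06) and 1.36 at 21 days (adjusted p = 0.0014).

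Some falls went with Largemyd replicates 2 and 4. Krt19, the chloride channel Ano1 (-0.70 ± 0.14, adjusted p = 0.0039) and the milk protein gene Csn3 (-1.39 ± 0.35, adjusted p = 0.029) had their highest values in Largemyd replicates 2 and 4. Csn3, chosen after its values were seen, read 7.56 and 8.58 there and 4.89 to 5.52 in the other 8 arrays. A list of 16 genes of mammary type epithelium, also written after the values were seen, averaged 7.67 and 8.31 in these 2 arrays. It averaged 6.68 to 6.89 in the other Largemyd arrays and 6.49 to 6.59 in the double mutant. Of its members 5 were called lower, beside 0.813% of all genes. A list drawn from these same values gives no separate support, so this count only describes them. Without the high-Xist arrays Csn3 differed by -0.06 (adjusted p = 0.94), and its call was lost without any 1 of 7 arrays (up to 0.21, without Largemyd replicate 2). Crabp1, a retinoic acid binding protein, fell by 0.65 ± 0.15 on the log2 scale (adjusted p = 0.021) with its highest value, 9.41, in Largemyd replicate 3, and lost its call without Largemyd replicate 2 or 3 or double mutant replicate 1 or 4 (up to 0.081).

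H2-Ea, Klk1b22 and Akr1e1 split the animals into high and low arrays within a group. H2-Ea, an MHC class II chain, read 11.59, 12.36, 11.79, 11.36 and 6.07 in Largemyd and 11.14, 5.99, 5.75, 5.73 and 5.86 in the double mutant. It was thus high in 4 of 5 Largemyd and in 1 of 5 double mutant animals, with a mean difference of -3.74 ± 0.89 (adjusted p = 0.020), and it was near 6 in C57Bl/6 (5.98 ± 0.11) and Dmdmdx (5.88 ± 0.09). The kallikrein Klk1b22, chosen after its values were seen, read 7.70, 8.27 and 8.23 in Largemyd replicates 1, 2 and 5 and 4.90 to 5.36 in the other 7 arrays (-1.77 ± 0.46, adjusted p = 0.035; lost without any 1 of 8 arrays, up to 0.21 without Largemyd replicate 2). The aldo-keto reductase Akr1e1 read 8.22, 8.04 and 8.42 in Largemyd replicates 1, 2 and 3, 4.80 and 5.29 in replicates 4 and 5, and 8.17 to 8.59 in the double mutant. It averaged 5.18 ± 0.21 in C57Bl/6 and 8.43 ± 0.10 in Dmdmdx. Its 6 month difference of 1.45 ± 0.43 did not pass (adjusted p = 0.071). The splits of H2-Ea, Klk1b22 and Akr1e1 did not divide the Largemyd animals alike. The complement gene C7, chosen after its values were seen, did divide them by Xist. It read 10.91 and 11.19 in Largemyd replicates 1 and 5 and 7.38 to 7.67 in the high-Xist replicates 2, 3 and 4. In the double mutant it read 9.65 to 11.39, and its difference of 1.81 ± 0.69 did not pass (adjusted p = 0.19). H2-Ea lost its call without Largemyd replicate 2 (adjusted p = 0.11) or double mutant replicate 2, 3, 4 or 5.

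**Figure D5:**
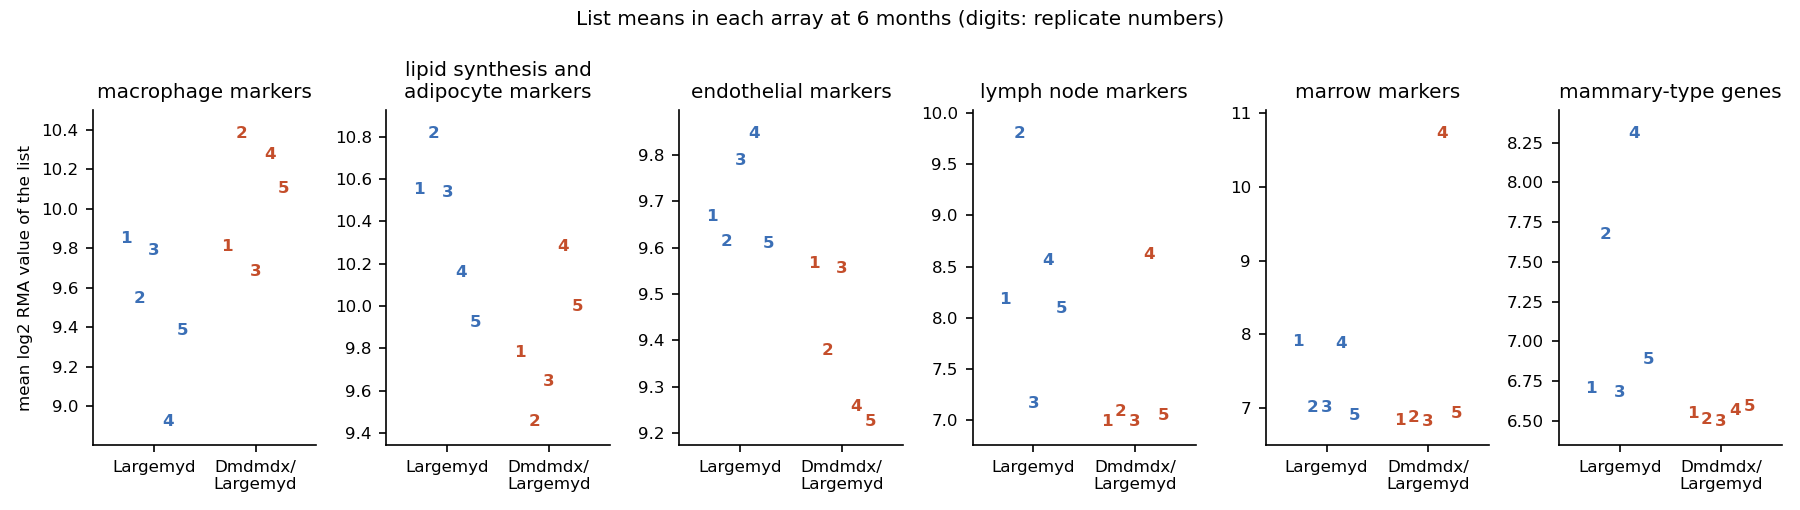
Mean log2 RMA value of 6 gene lists in each array at 6 months; the digit is the replicate number, blue for Largemyd and orange for the double mutant. Macrophage means of double mutant replicates 2, 4 and 5 lie above all Largemyd arrays; lymph node markers peak in Largemyd replicate 2 (9.80), marrow markers in double mutant replicate 4 (10.73) and mammary-type genes in Largemyd replicates 2 and 4.

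Of the 45 gene lists, 15 had at least 1 member called and 30 had none. Besides the lists above, T cell and NK cell markers had a median of -0.36 and lymph node markers of -0.80, all 18 of the latter below 0 and none called. With all arrays of raised other-tissue markers left out, 11 of the 18 lymph node markers were called lower. Those arrays were chosen in part by these same markers. Without only Largemyd replicate 2 and double mutant replicate 4, no lymph node marker was called. Over all genes 11290 of 19938 differences were below 0 and 8648 above. Cell cycle genes had a median of 0.25 with 30 of 30 above 0, of 0.38 without the high-Xist arrays, and of -0.06 without Largemyd replicate 2 and double mutant replicate 4, so their direction turned when those arrays were left out. Interferon-induced genes (median 0.06), cholesterol synthesis (-0.09), glycolysis (0.10) and ribosomal proteins (0.04) had no calls.

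Set beside the C57Bl/6 level, which these comparisons share, Largemyd and the double mutant each had many calls. In Largemyd 3076 genes were above (15.4%) and 3407 below C57Bl/6 (17.1%), and in the double mutant 2862 above (14.4%) and 3083 below (15.5%). The macrophage median was 1.53 above C57Bl/6 in Largemyd, 2.01 in the double mutant and 1.64 in Dmdmdx. The lipid median was 0.66, 0.04 and -0.49 and the endothelial median 0.17, -0.16 and -0.03 in the same order.

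Whether the difference at 6 months departed from that at a younger age was tested directly, each age being compared within itself. Against 3 months 15 genes passed (0.0752%), 12 upward and 3 downward. Akr1e1 moved most upward, by 3.14 ± 0.60 (adjusted p = 0.014), and Snord53 most downward, by -3.54 ± 0.39 (adjusted p = 7.83e-08). The glycogen-targeting subunit Ppp1r3c departed by 2.03 ± 0.39, from -1.23 at 3 months to 0.81 at 6 months, and the synaptic scaffold Homer1 by 1.04 ± 0.19, from -0.86 to 0.18. This count was between 2 and 139 when single arrays were left out. Against 21 days 594 genes passed (2.98%), 387 upward and 207 downward. Mmp12 went from -1.11 at 21 days to 1.30 (a departure of 2.42 ± 0.50, adjusted p = 0.0076) and Elovl6 from 0.30 to -1.29 (-1.59 ± 0.41, adjusted p = 0.026). Of the 268 genes called at 6 months, 71 departed from 21 days and 3 from 3 months. The 268 were picked by the same 6 month difference that enters each departure, so these counts are not independent of that choice.

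The double mutant was also compared with what the single mutants would add up to. The part beyond the sum, double mutant minus Largemyd less Dmdmdx minus C57Bl/6, passed in 1001 genes (5.02%), 592 above (2.97%) and 409 below 0 (2.05%). A value below 0 means that the difference between double mutant and Largemyd was lower than that between Dmdmdx and C57Bl/6, whatever the sign of each. Above 0 were 7 of 28 genes of fatty acid oxidation and uptake, with none below. Below 0 were 16 of 32 macrophage markers, 14 of 37 fibrous matrix genes and 9 of 24 matrix proteases and inhibitors, with none above. C3ar1, the receptor of the complement fragment C3a, averaged 8.05 ± 0.20 (SD) in C57Bl/6, 11.40 ± 0.35 in Dmdmdx, 10.75 ± 0.42 in Largemyd and 11.34 ± 0.36 in the double mutant. It stood 3.35 higher in Dmdmdx than in C57Bl/6 but 0.60 higher in the double mutant than in Largemyd, a departure of -2.75 ± 0.37 (adjusted p = 4.44e-06). Ostn, the muscle hormone osteocrin, was the reverse, at 10.98 ± 0.59, 7.29 ± 0.23, 7.82 ± 0.61 and 7.07 ± 0.48 in the same order, with a departure of 2.94 ± 0.37 (adjusted p = 9.57e-07). High Xist was found in 4 of the 5 C57Bl/6 arrays, and with the 6 month high-Xist arrays left out, which leaves 1 C57Bl/6 array, 23 genes passed.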

How the data were processed

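Total RNA of calf muscle was hybridised to Mouse Gene 1.0 ST arrays, 1 for each of 60 animals. The deposited values are log2 RMA values, made by the authors in Affymetrix Expression Console, per the submitters' processing notes; its version and the genome build are not given in the sources used here. The 3 ages appeared to have been normalised apart, so levels were compared within an age only. Of 35556 probe sets, 21789 had 1 gene symbol, 1621 several and 12146 none. The probe set with the highest mean over the 60 arrays stood for each of 19938 genes (999 had several). Array number and signal above background limit the precision, and no read depth applies.

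limma 3.58.1 (R 4.3.3) was fitted with 12 group means over the 60 arrays (48 residual degrees of freedom), p-values were adjusted by Benjamini-Hochberg over all genes, and genes under 0.05 are called. Differences are double mutant minus Largemyd. In 10 simulations of the 6 month comparison the test recovered 72.6% of genes changed by 0.5 and 96% of those changed by 1 log2 unit. Recovery and false calls in groups of unequal spread, or that mix high-Xist, lymph node or marrow arrays with others, as here, were not tested. Tables and plots used Python 3.11.15 with pandas 2.3.3, numpy 2.4.6 and matplotlib 3.10.9.

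The comparison, its 45 gene lists (895 of 968 genes measured) and the alternatives were chosen with earlier results of these data known. Named genes were the 12 largest called and non-overlapping changes each way, the genes called at 3 ages, up to 4 called members of each list and the 4 largest departures each way, unless said otherwise. The gene mutated in Largemyd is not reported here.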

Additional observations from a re-analysis of the deposited data

Results flagged for a closer look

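In 10 of 92 sets of 5 values, 1 array lay far from the others. The rule used flags about 1 of 20 sets of independent normal values. These sets hold genes chosen by their values and list means from the same arrays, so that rate is no measure of chance here. Double mutant replicate 4 held 5 of the 10 flags. It was lowest for Pcbd1 (9.34, the others 9.99 to 10.19) and highest in the means of T cell and NK cell markers (7.62, others 6.68 to 6.89), lymph node markers (8.62, others 6.98 to 7.09), marrow markers (10.73, others 6.81 to 6.92) and bone markers (8.05, others 7.09 to 7.12). Largemyd replicate 2 was lowest for Mettl15 (7.38, others 7.81 to 7.87) and for Sdhaf4 (6.82, others 7.34 to 7.50), and double mutant replicate 3 highest for Mettl15 (9.04, others 8.45 to 8.62). H2-Ea was low in Largemyd replicate 5 (6.07, others 11.36 to 12.36) and high in double mutant replicate 1 (11.14, others 5.73 to 5.99).

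Other results stood out because the difference between the groups departed from that at another age, by limma's test of the departure itself. From 3 months to 6 months the departures were 3.14 for Akr1e1, 2.03 for Ppp1r3c, 1.04 for Homer1, 0.98 for Ankrd9, -0.42 for Pcgf2, -0.68 for Ldb2 and -3.54 for Snord53, with adjusted p from 7.83e-08 to 0.033. From 21 days to 6 months they were 2.42 for Mmp12, 2.19 for Akr1e1, 1.91 for C1qtnf3, 1.57 for Mss51, -1.59 for Elovl6, -1.99 for Hamp, -2.33 for Orm1 and -2.94 for Snord53 (9.76e-06 to 0.049). The part beyond the sum of the single mutants was 2.94 for Ostn, 2.07 for Lrrc52, 1.93 for Otub2, 1.81 for Alpk2, -2.33 for Ms4a7, -2.38 for Ctss, -2.41 for Ccl8 and -2.75 for C3ar1 (9.12e-08 to 0.0036).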

How the results depend on the processing

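The 268 called genes kept their direction in each of the 26 alternatives that tested them. That direction was largely fixed by how the genes were picked, since the alternatives reuse the same arrays. Of the alternatives 2 were chosen after seeing the data: leaving out Largemyd replicate 2 with double mutant replicate 4, and leaving out the high-Xist arrays of 6 months. The count of genes called higher, 106 as reported, was 6 from the 10 arrays alone, 357 with array weights, 9 without all high-Xist arrays, 22 with high Xist as a covariate, 11 without high-Xist and other-tissue arrays, 57 with lymph node and marrow covariates, 171 without the LGPL2 arrays, and 22 and 8 under the 2 added alternatives; single arrays left out gave 27 to 174. The count called lower, 162 as reported, was 2 from 10 arrays, 98 from the 20 arrays of 6 months, 100 with array medians subtracted, 389 with weights, 7 without high-Xist arrays, 20 with the Xist covariate, 17 without both kinds of array, and 47 and 6 under the added alternatives, with 44 to 210 when single arrays were left out. These are all calls under each setting, not shares of the reported genes. At 3 months (227) weights gave 2700, leaving out high-Xist arrays 359, other-tissue arrays 633 and both 515, and the tissue covariates 457; at 21 days (1104) those covariates gave 2019. For the departure from 3 months (15) weights gave 1811, the dim filter 78, leaving out high-Xist arrays 2, the Xist covariate 1, leaving out other-tissue arrays 154, both kinds 5 and LGPL2 arrays 301, the added alternatives 4 and 2, and single arrays 2 to 139. For that from 21 days (594) quantile normalisation gave 275, weights 1001, leaving out high-Xist arrays 66, the Xist covariate 301, leaving out other-tissue arrays 214 and both kinds 116, tissue covariates 1167, LGPL2 arrays left out 1123, the added alternatives 132 and 34, and single arrays 136 to 1119. For the part beyond the sum (1001) weights gave 3870, leaving out high-Xist arrays 58, other-tissue arrays 1863 and LGPL2 arrays 1580, the added alternatives 623 and 23, and single arrays 627 to 1460. Fewer arrays also mean less power; other causes were not tested. No paired analysis was possible because the replicate numbers follow the order of deposit and pair no animals.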
